A study of Mus musculus with 6 samples.

Results

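The genes described here encode 8 protein kinases that act on the splicing machinery: Clk1, Clk2, Clk3, Clk4, Srpk1, Srpk2, Prpf4b and Dyrk1a. They were taken by symbol from an expression table of 19386 genes, with the splicing events that lie inside them on the same strand, which were 13 of 10376 JuncBASE events and 15 of 3887 rMATS retained introns. All 8 genes had an adjusted p-value, which 12082 genes of the table had, so none was lost to a filter on low counts. The set was chosen by its group means in that table, with the splicing differences between the groups also known, so the values below are a description and support nothing on their own.

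The samples are 6 libraries of mouse bone marrow-derived macrophages, cells obtained by culturing marrow with medium conditioned by L929 cells. All mice were wild type, of the C57BL/6 strain, and the cultures were harvested on day 11. One group of 3 came from mice exposed to room air and the other group of 3 from mice exposed to cigarette smoke. Age and the length and dose of the exposure are not given in the sources used here. The labels do not say whether each library is a separate mouse, so the spread between libraries, on which the splicing p-values rest, may be partly technical. The expression p-values are the authors' and may rest on more libraries than these 6.

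SR proteins are splicing factors with a domain rich in serine and arginine, whose phosphorylation sets where they are in the cell and how they act on pre-mRNA. The SRPK kinases phosphorylate them largely in the cytoplasm, which allows import into the nucleus, and the CLK kinases phosphorylate them further in the nucleus and release them from nuclear speckles. Clk1 and Clk4 transcripts are known for detained introns, which keep polyadenylated RNA in the nucleus until it is spliced, and for skipping of exon 4, which removes the catalytic domain from the encoded protein.

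Several of the splicing events below concern exon 4 of the Clk genes and the introns on either side of it, so its sequence is shown for all 4 genes. Each line gives exon 4 in capitals with the last 20 bases of intron 3 before it and the first 6 bases of intron 4 after it in lower case, 5′ to 3′ on the transcribed strand, read from GENCODE M21 transcripts that retain both introns (GRCm38). The windows are chr1:58420115-58420231 on the minus strand for Clk1, chr11:51273058-51273174 on the plus strand for Clk4, chr3:89169595-89169708 on the plus strand for Clk2 and chr9:57758621-57758743 on the minus strand for Clk3.
Clk1: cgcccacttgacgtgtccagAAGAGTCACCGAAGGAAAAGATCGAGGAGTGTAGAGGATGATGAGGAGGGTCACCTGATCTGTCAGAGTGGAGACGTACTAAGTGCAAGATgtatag
Clk4: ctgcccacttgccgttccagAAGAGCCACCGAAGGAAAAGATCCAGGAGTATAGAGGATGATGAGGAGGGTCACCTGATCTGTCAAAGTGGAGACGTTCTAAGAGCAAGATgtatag
Clk2: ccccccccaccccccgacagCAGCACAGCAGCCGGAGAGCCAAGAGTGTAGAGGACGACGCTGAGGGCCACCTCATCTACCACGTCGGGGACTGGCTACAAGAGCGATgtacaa
Clk3: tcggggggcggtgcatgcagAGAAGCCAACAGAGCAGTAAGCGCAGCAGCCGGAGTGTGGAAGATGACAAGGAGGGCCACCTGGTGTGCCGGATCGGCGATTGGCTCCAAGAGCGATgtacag

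Exon 4 lies in coding sequence in all 4 genes and is 91 nucleotides long in Clk1 and Clk4, 88 in Clk2 and 97 in Clk3, none of them a multiple of 3. Clk1 and Clk4 were identical at 85 of the 91 positions (93.4%), while each pair that includes Clk2 or Clk3 had between 60.6% and 67.3% identity in a global alignment. Without exon 4, the reading frame of the Clk1 reference transcript ends after 135 residues instead of 483, and that of Clk4 after 134 instead of 481. The corresponding lengths are 136 and 500 residues for Clk2, and 300 and 638 for Clk3.

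The splice donor of intron 3 splits the genes in the same way. With the last 3 exon bases in capitals and the first 6 intron bases in lower case, it is GGGgtatga in Clk1 and TCGgtatga in Clk4, against TCAgtgagt in Clk2 and TCGgtgagt in Clk3. Over the whole coding sequence Clk1 and Clk4 were 73.4% identical, the closest pair of the 8 genes, and Srpk1 and Srpk2 were 64.7% identical. No stretch of 50 nucleotides was shared between the annotated transcripts of any 2 of the 8 genes. An exact match of that length to 1 member is therefore not a match to another. Other loci, reads with mismatches and introns outside annotated transcripts were not compared.

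**Figure D1:**
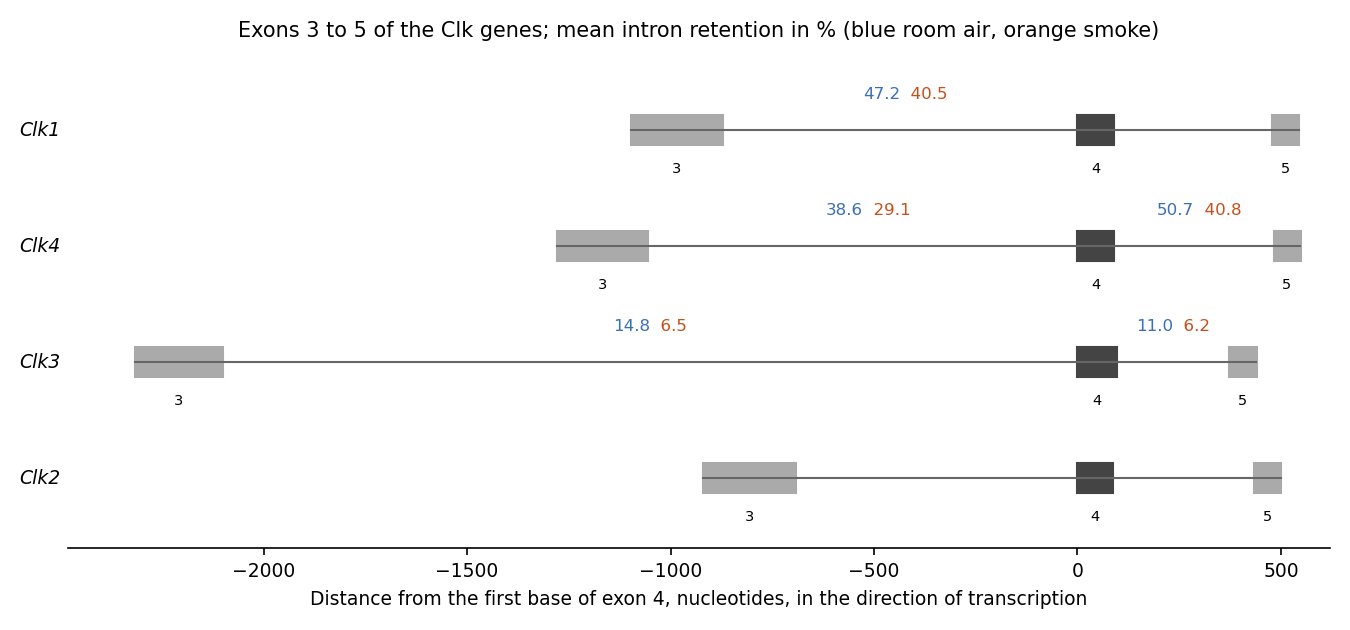
Exons 3, 4 and 5 of the Clk genes drawn to scale against the distance in nucleotides from the first base of exon 4, in the direction of transcription. Numbers above an intron are its mean percent retention in room air (blue) and after cigarette smoke (orange). The introns around exon 4 had room air means of 47.2% in Clk1 and 38.6% and 50.7% in Clk4, against 14.8% and 11.0% in Clk3.

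Of the 8 kinase genes, Clk1 and Prpf4b had lower RNA levels after cigarette smoke in the authors' deposited table and the other 6 did not pass an adjusted p of 0.05. Levels are group means of counts divided by size factors (normalized counts), so no value of a single library is shown for expression. The header names the log2 fold change as a shrunken estimate, and the 95% intervals below come from that estimate and its deposited SE under a normal distribution. The share of called genes was 7.69% over all genes tested, 3.53% lower and 4.15% higher, and 2 of 8 here were called, both lower. In the authors' DESeq2 comparison 4 of the 8 had an unadjusted p under 0.05, as did 22.8% of all genes tested. The 95% intervals, not adjusted for the number of genes, lay below 0 in 4 and spanned 0 in 4. Nothing is read from these counts, since this contrast was known when the genes were chosen. In these cultures, less RNA per cell and fewer cells that express a gene cannot be told apart.

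Clk1, the founding member of the CLK family (ENSMUSG00000026034.17, chromosome 1, 58410189 to 58424066, minus strand), averaged 1078 normalized counts in room air and 670.5 after smoke. The authors' deposited table gives it a log2 fold change of -0.68 with an SE of 0.17 (adjusted p 0.00508), which is a change of -37.5%. Clk4, its closest relative (ENSMUSG00000020385.16, chromosome 11, 51261730 to 51281766, plus strand), had means of 340.4 and 262.4, and that table lists it at -0.35 with an SE of 0.17 (adjusted p 0.193). Clk4 had a fold change in the same direction as Clk1 and about as large a standard error, and it did not pass the threshold.

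Clk2 (ENSMUSG00000068917.12, chromosome 3, 89164795 to 89176921, plus strand) had means of 211.8 and 186.4 normalized counts and a log2 fold change of -0.16 (SE 0.13) in the authors' deposited table. Clk3 (ENSMUSG00000032316.8, chromosome 9, 57750624 to 57765860, minus strand) was the 1 gene of the 8 with a higher mean after smoke, 392.6 against 384.7, and its log2 fold change of 0.03 (SE 0.09) had a 95% interval of -0.14 to 0.20. Changes of Clk3 as large as that fitted for Clk1 lie outside that interval.

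Of the cytoplasmic SR protein kinases, Srpk2 (ENSMUSG00000062604.11, chromosome 5, 23503264 to 23684617, minus strand) had means of 462.6 and 330.3 normalized counts. The authors' deposited table lists it at -0.49 on the log2 scale with an SE of 0.20 (adjusted p 0.113), with a 95% interval of -0.88 to -0.09. Srpk1 (ENSMUSG00000004865.15, chromosome 17, 28587648 to 28622709, minus strand) had means of 380.0 and 372.5 and a log2 fold change of -0.03 (SE 0.11), with a 95% interval of -0.24 to 0.19. The difference between the fold changes of the 2 genes was not tested.

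Prpf4b, a kinase that associates with the spliceosome (ENSMUSG00000021413.9, chromosome 13, 34875302 to 34906064, plus strand), averaged 711.7 normalized counts in room air and 432.1 after smoke. At -0.71 on the log2 scale with an SE of 0.16 (adjusted p 0.000761), a change of -38.8%, it was the gene furthest from 0 of the 8 in the authors' deposited table. Dyrk1a, a dual-specificity kinase found in nuclear speckles (ENSMUSG00000022897.15, chromosome 16, 94570010 to 94695517, plus strand), averaged 454.8 and 381.0, and that table lists it at -0.26 with an SE of 0.14 (adjusted p 0.249).

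Per kilobase of the transcript with the longest coding sequence, Clk1 had the highest level of the 8, with 600.4 normalized counts per kilobase in room air and 373.3 after smoke. Clk4 followed with 174.7 and 134.6, Clk3 with 154.1 and 157.3 and Clk2 with 100.3 and 88.3. Room air levels of the other 4 lay close together, at 90.7 for Prpf4b, 81.7 for Srpk1, 79.0 for Dyrk1a and 71.3 for Srpk2. Whether neighbours in this order differ beyond the spread between libraries cannot be said from group means. The order also depends on the transcript chosen. For Clk1 the one used has 1796 nucleotides and the longest 4865, and for Clk2 they have 2112 and 3168. For Prpf4b and Srpk2 the one used is also the longest.

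A trend in transcript GC content and length was fitted to the fold changes of the tested genes, without a measure of how well it fitted. Both called kinase genes have long, AT-rich transcripts, and the uncalled Srpk2 has one too (6491 nucleotides, 40.5% GC, trend value -0.33). The longest Clk1 transcript has 4865 nucleotides and 39.2% GC, and that of Prpf4b 7844 nucleotides and 40.8% GC. The Clk1 transcript used for the level per kilobase has 1796 nucleotides, and the trend was not fitted with that length. A smooth trend in both properties gave a log2 fold change of -0.29 for a gene like Clk1 and -0.36 for one like Prpf4b. With the trend removed, the log2 fold changes were -0.39 for Clk1 (adjusted p 0.332) and -0.34 for Prpf4b (adjusted p 0.342), and none of the 8 genes passed the threshold, while 3 had an unadjusted p under 0.05. Over all genes 1.28% passed the threshold after that step and 11.1% had an unadjusted p under 0.05. Clk2 moved the other way, from -0.16 to -0.32 (adjusted p 0.256). The median log2 fold change of the 8 genes was -0.30 as deposited and -0.14 with the trend removed, against -0.0029 and -0.015 over all genes tested.

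**Figure D2:**
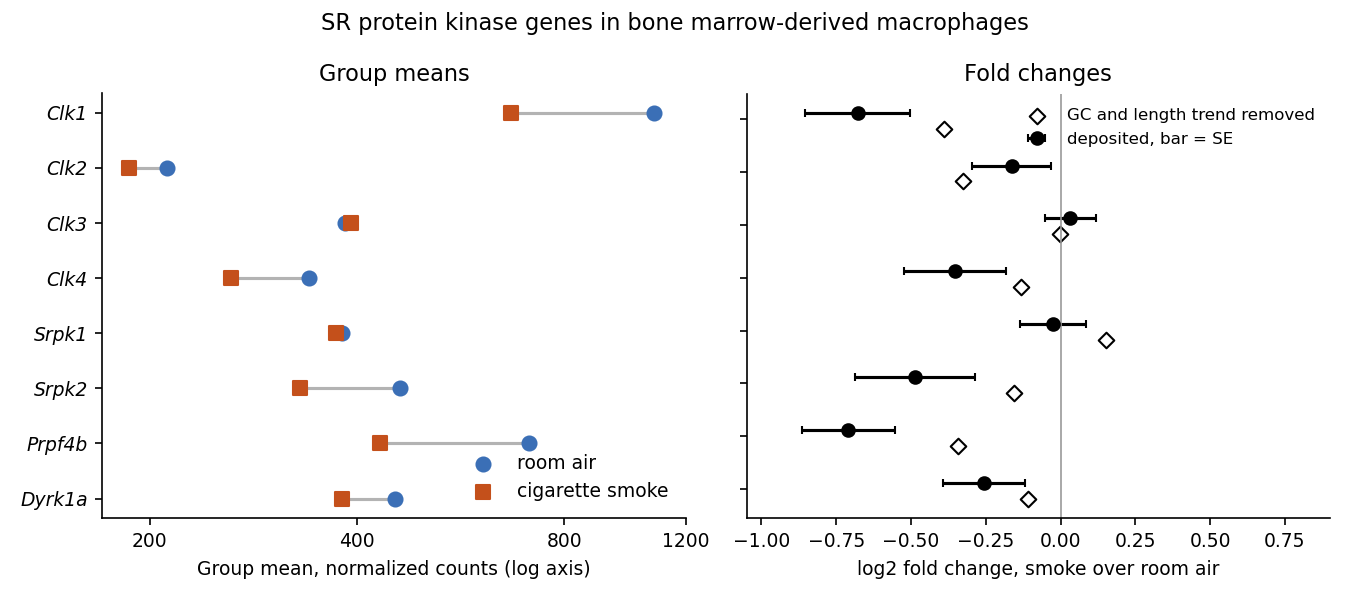
Expression of the 8 kinase genes: left, group means in normalized counts on a log axis for room air (circles) and cigarette smoke (squares); right, the deposited log2 fold change with its SE (filled) and the value after removal of the GC and length trend (open diamonds). Clk1 and Prpf4b have the fold changes furthest from 0, -0.68 and -0.71, and both move to -0.39 and -0.34 once the trend is removed.

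Some of these genes overlap others. The 3′ end of Clk3 overlaps Edc3 on the opposite strand over 1876 nucleotides, and Srpk2 overlaps Kmt2e over 972, Clk4 overlaps BC049762 over 1317 and Prpf4b overlaps Gm36839 over 131 in the same way. The libraries were directional, but the strand setting used for counting is not given in the sources used here, so reads of these pairs may be mixed. Overlaps on the same strand, where strand cannot separate reads, are Gm25082 in Clk4 (255 nucleotides) and Gm15971 in Dyrk1a (211). In Srpk2 they are Gm24009 (93) and Gm43566 (808).

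As a check of the cells, all 8 macrophage markers were listed, with group means between 348.1 normalized counts (Mertk) and 24772 (Lyz2), and none was called (1 at an unadjusted p under 0.05 in the authors' DESeq2 comparison). No T cell or erythroid marker of the lists was in the table used here. The neutrophil and B cell markers that were listed summed to at most 6.31 normalized counts in either group. The 4 stromal markers summed to 42.5 in room air and 6.61 after smoke, and the dendritic markers to 32 and 108.8, almost all of it Itgax, which macrophages also express. The part of these shifts in the results was not tested.

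The splicing events of the kinase genes were followed library by library as percent inclusion, the share of reads that support the retained intron, the included exon or the longer exon form. The 13 events fell in 6 of the 8 genes, with none in Prpf4b or Dyrk1a, and comprised 11 retained introns, exon 4 of Clk1 and an alternative acceptor of Clk2. The mean was lower after smoke in all 13, and smoke values lay entirely below room air values in 7. Over the whole table, smoke values lay below in 38.7% of introns with 6 values and 27.9% of those lacking only smoke replicate 1, and in 14.4% of cassette exons and 9.09% of acceptors with values in the same libraries as the events here. The mean was lower in 89.9% of all introns, 58.4% of such cassette exons and 42.4% of such acceptors. None passed an adjusted p of 0.05 in limma fitted over all 10376 events, where the share called was 0.0% (adjusted p from 0.407 to 0.761 in these 13). At an unadjusted p under 0.05 there was 1 of the 13, intron 3 of Clk3, where 10.8% of all events were. The authors' own corrected p-values of the 13 were 0.838 or more.

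The libraries differed in missing values and in values of exactly 0%, and the part of this in the differences was not tested. Smoke replicate 1 had no value in 9 of the 13 events and in 4169 of all 10376, against at most 398 in any of the other libraries. Among 1992 introns with a value in every library, 63.3% were at exactly 0% in smoke replicate 1 and 46.5% in smoke replicate 2, compared with 11.4% in smoke replicate 3 and between 2.71% and 12.9% in the room air libraries. Retention was also lower after smoke across the table: 89.9% of 3305 retained introns had a lower mean, with a median difference of -3.79 percentage points. The median difference over the 11 introns of the kinase genes was -6.62 percentage points, from a room air median of 14.8% against 6.89% over all introns. Without smoke replicate 2 that median was -3.12 for the kinase genes, with 8 of the 11 introns lower, and -3.50 over all introns. For 7 of the 11 this leaves smoke replicate 3 alone in its group.

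Among the 11 introns with a JuncBASE level, which do not include intron 4 of Clk1 or introns 3 and 4 of Clk2, the most retained were intron 3 of Clk1 and introns 3 and 4 of Clk4, next to exon 4 of those 2 genes. Intron 3 of Clk1 (chromosome 1, 58420212 to 58421082, 871 nucleotides), the intron that ends at the Clk1 exon shown above, was retained at 47.7%, 51.8% and 41.9% in the 3 room air libraries by replicate number, and at 33.3% and 47.7% in smoke replicates 2 and 3. Smoke replicate 3 lay among the room air libraries and smoke replicate 2 below them. The room air mean of 47.2% ± 4.96 (SD, n = 3) was higher than that of 92.0% of all retained introns.

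Both introns around exon 4 of Clk4 showed the same arrangement of libraries. Intron 3 (chromosome 11, 51272023 to 51273077, 1055 nucleotides) was retained at 36.7%, 47.1% and 32.1% in room air, and at 18.2% and 40.0% in smoke replicates 2 and 3. Intron 4 (51273169 to 51273559, 391 nucleotides) was retained at 52.2%, 48.4% and 51.6% in room air, and at 30% and 51.6% in smoke replicates 2 and 3. In each of the 3 introns the groups overlapped, with smoke replicate 2 low and smoke replicate 3 within the room air range. Their mean differences were -6.62, -9.53 and -9.92 percentage points. Each turned positive when smoke replicate 2 was left out, which leaves smoke replicate 3 alone (log2 odds differences of 0.034, 0.091 and 0.050).

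Other introns of the same 2 genes were retained far less. Intron 7 of Clk1 (58414685 to 58417012) had levels of 7.22%, 9.40% and 6.67% in room air and 3.85%, 0% and 5.44% after smoke, so the groups did not overlap. Intron 12 of Clk1 (58412341 to 58412646) had 3.80%, 2.22% and 5.00% in room air and 0%, 5.41% and 2.56% after smoke, and the groups overlapped. Intron 7 of Clk4 (51275579 to 51275769) had 7.5%, 8.57% and 8.33% in room air, whereas the smoke values of 10.0%, 0% and 4.60% lay on both sides of them.

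Exon 4 of Clk1 itself (58420121 to 58420211), whose skipping joins exons 3 and 5 and is annotated in 3 transcripts of the gene, was included at 82.8%, 75.0% and 76.6% in room air and at 70.0% and 70.8% in smoke replicates 2 and 3. Both smoke values lay below all 3 room air values, a mean difference of -7.71 percentage points that did not pass in limma (adjusted p 0.638). Among cassette exons with values in the same 5 libraries, 14.4% had smoke values below all room air values.

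Clk3, whose exon 4 introns were retained less than those of Clk1 and Clk4, had the clearest separation of groups in 1 of them. Intron 3 (chromosome 9, 57758724 to 57760823, 2100 nucleotides) was retained at 14.3%, 16.2% and 14.0% in room air and at 8.33%, 5.26% and 6.00% after smoke. It had a value in all 6 libraries and the groups were apart by more than the range within either, with means of 14.8% ± 1.22 (SD, n = 3) and 6.53% ± 1.60 (SD, n = 3). In limma its log2 odds differed by -1.22 (SE 0.45, adjusted p 0.407, the lowest of the 13). Intron 4 of Clk3 (57758351 to 57758626) had 6.25%, 17.2% and 9.52% in room air and 7.69% and 4.76% in smoke replicates 2 and 3, which overlapped.

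Intron 12 of Clk3 (57751122 to 57751736), which lies within the overlap with Edc3, had 20.8%, 15.6% and 12.2% in room air and 0% and 11.4% in smoke replicates 2 and 3. Intron 10 of Srpk1 (chromosome 17, 28599870 to 28600242) had 22.2%, 29.2% and 20.7% in room air and 0% and 18.8% in smoke replicates 2 and 3. The groups did not overlap in either intron, with smoke replicate 2 at 0% and smoke replicate 3 close under the lowest of them. Intron 5 of Srpk2 (chromosome 5, 23540482 to 23545522) had 8.70%, 4.44% and 7.69% in room air and 0% and 3.7% in smoke replicates 2 and 3. Without smoke replicate 2, which leaves smoke replicate 3 alone, the mean differences of these 3 introns went from -10.5, -14.7 and -5.09 percentage points to -4.77, -5.28 and -3.24.

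Such separations were common in the whole table. Of the 4 kinase gene introns with 6 values, 2 had all smoke values below all room air values, where 38.7% of all such introns did. Of the 7 without a value in smoke replicate 1, 3 did, where 27.9% did. The acceptor event of Clk2 concerns 3 bases, CAG (chromosome 3, 89168695 to 89168697), at the start of exon 3. The form with these bases had 88.9% and 85.7% in replicates 2 and 3 of room air, against 80% and 84.2% in the same-numbered smoke libraries, a separation that 9.09% of like acceptor events had.

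**Figure D3:**
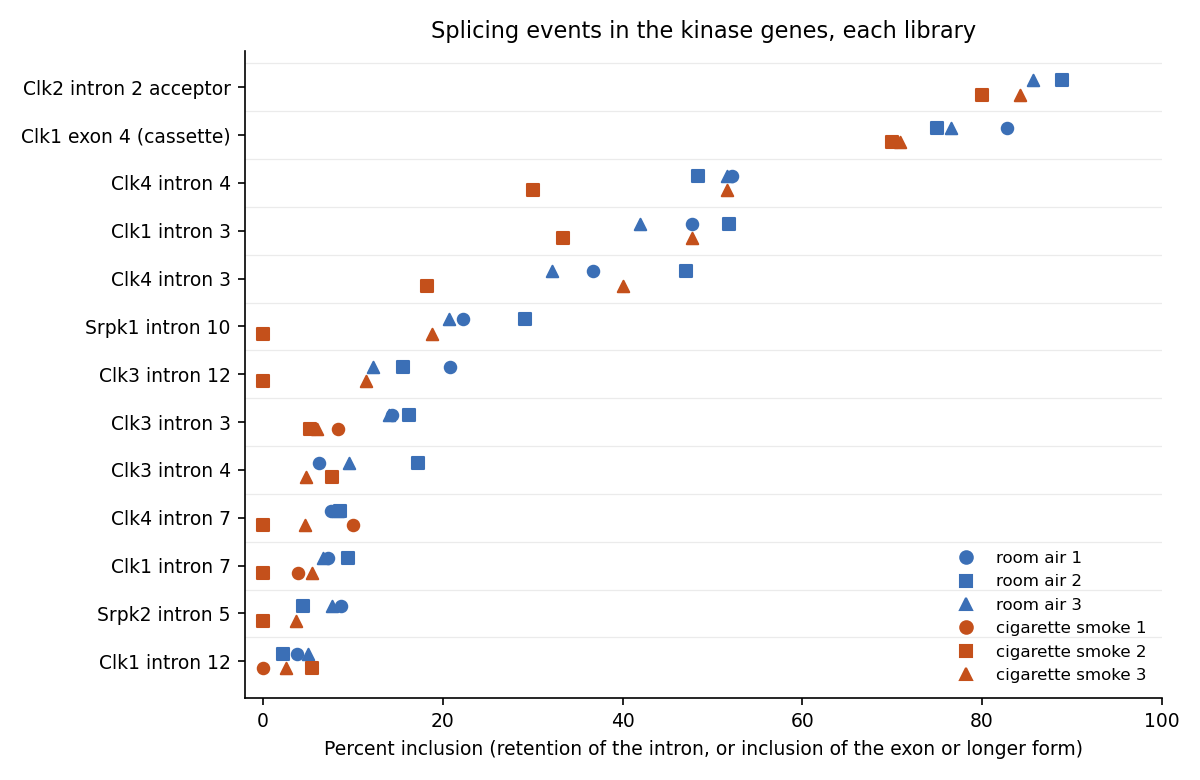
Percent inclusion of the 13 splicing events of the kinase genes in each library: color gives the group and marker shape the replicate, and events are ordered by room air mean. The 3 introns around exon 4 of Clk1 and Clk4 lie between 18.2% and 52.2%, with smoke replicate 2 to the left of every other library and smoke replicate 3 among the room air libraries.

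**Figure D4:**
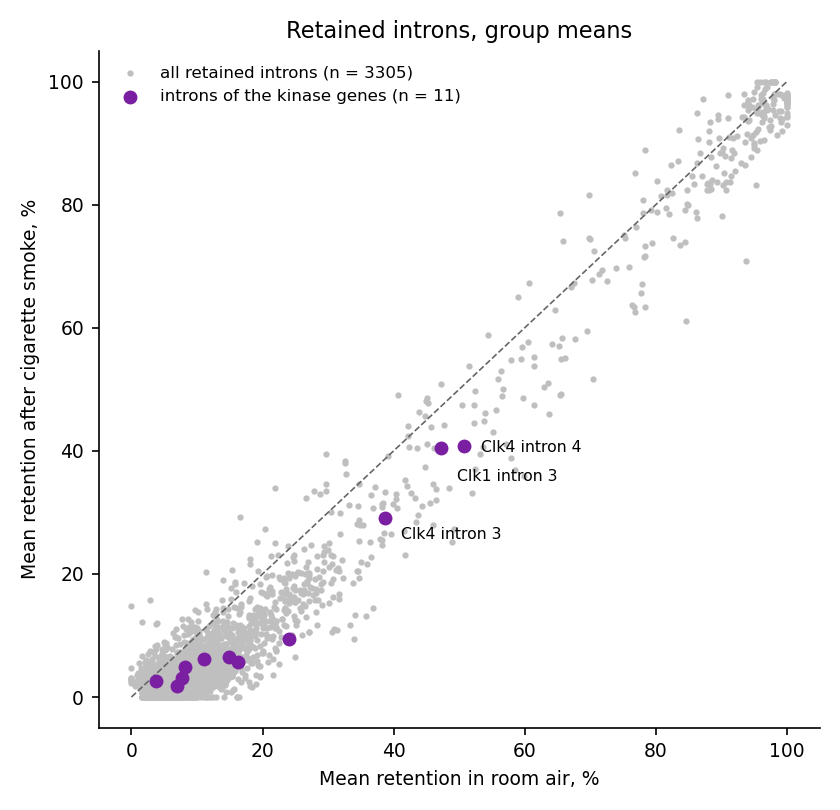
Mean retention in room air (x axis, %) and after cigarette smoke (y axis, %) for all 3305 retained introns (gray) and the 11 introns of the kinase genes (purple), with the line of equal levels dashed. All 11 lie below the line, as do 89.9% of all introns.

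The authors' deposited rMATS table counts junction and intron-body reads, and it gives sample set 1 minus sample set 2. The groups behind the sets are not stated, so its differences have no direction here. Of the 15 retained introns in 5 kinase genes, 4 had a false discovery rate under 0.05, where 14.5% of all 3887 introns did. By direction, 3 of the 15 were called higher in set 1 and 1 higher in set 2, against 13.8% and 0.72% of all introns. The 4 were intron 3 of Clk3, intron 12 of Clk2, and the regions from exon 3 to exon 5 of Clk4 and of Clk2.

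Intron 3 of Clk3, described above with its JuncBASE levels, has a difference of 8.0 percentage points in the authors' deposited table (FDR, the false discovery rate, 0.000119), beside -8.29 points for smoke minus air in the JuncBASE levels. Intron 12 of Clk2 (chromosome 3, 89175736 to 89176393), the last of the gene, has 9.9 points (FDR 0.0291). The region from exon 3 to exon 5 of Clk4 (51272023 to 51273559) has 25.8 points (FDR 0.00524), and that of Clk2 (89168924 to 89170048) has -27.1 points (FDR 0.00624), both from the authors' deposited table. The 2 genes thus had opposite signs over corresponding regions.

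These last 2 are not plain introns: each holds exon 4, as do 4 of the 15 regions, so reads from a spliced-in exon 4 can count toward the retained form. The corresponding regions of Clk1 (58419734 to 58421082) and Clk3 (57758351 to 57760823) have 10.8 points (FDR 0.375) and 21.5 points (FDR 0.258) in the authors' deposited table. Without the regions that hold an exon, 2 of 11 introns remained called. The share of all introns called under that filter was not computed, so nothing is read from this count. The introns on either side of exon 4 of Clk2, taken singly, differed by -1.1 points (intron 3, false discovery rate 1) and 6.7 points (intron 4, 0.348).

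None of the remaining introns was called, and the authors' deposited table puts them between -2.7 and 6.4 percentage points. Intron 12 of Clk1 has -0.5 points there, beside a JuncBASE difference of -1.02 for smoke minus air, and intron 7 of Clk4 has 0.4 beside -3.27. Introns 4 and 12 of Clk3 have 2.6 and 3.6 points in the authors' deposited table, beside JuncBASE differences of -4.78 and -10.5. Without smoke replicate 2, the JuncBASE differences are -4.77 for intron 12 of Clk3 and -0.83 for intron 7 of Clk4. Without room air replicate 2, that of intron 4 of Clk3 is -1.66. Intron 8 of Clk4 (51275865 to 51276117), which has no JuncBASE event, is at -0.4. Both Prpf4b introns (chromosome 13, 34903603 to 34904043 and 34904090 to 34905882) lie in the untranslated 3′ part of its reference transcript, which carries them unspliced, and they differed by -2.7 and 6.4 points.

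The proteins these kinases act on, and the factors around them, were taken as a list with the kinases. Of 23 SR and SR-related proteins, 22 had an adjusted p-value in the authors' deposited table, 4 were called lower and 1 higher, where 3.53% and 4.15% of all genes were. The lower ones were Pnisr at -0.99 (SE 0.17), Luc7l3 at -0.70 (SE 0.16), Luc7l2 at -0.55 (SE 0.10) and Srsf11 at -0.50 (SE 0.14), on the log2 scale of the authors' deposited table. Luc7l2 and Luc7l3 are relatives of a yeast component of the U1 particle, and Srsf11 and Pnisr carry domains rich in serine and arginine. Rnps1, a component of the exon junction complex, was higher at 0.46 (SE 0.13). The list's median was -0.21 as deposited and -0.075 with the GC and length trend removed, and 16 of the 22 had a negative deposited value, as did 50.3% of all genes. With the GC and length trend removed, Pnisr (-0.82, adjusted p 0.00183) and Luc7l2 (-0.36, adjusted p 0.0454) still passed.

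Of 13 further kinases related to the 8 or acting on them, 11 had an adjusted p-value in the authors' deposited table and 1 was called, where 7.69% of all genes were. Their median log2 fold change was -0.19 as deposited and -0.0032 with the trend removed. Akt1, a growth factor signalling kinase, was called higher at 0.36 (SE 0.10, adjusted p 0.0162) and fell out with the trend removed (0.07, adjusted p 0.898). Cdk11b, a kinase of the transcription and splicing machinery, was at -0.28 (SE 0.10, adjusted p 0.0575) and passed with the trend removed (-0.37, adjusted p 0.0235). None of the 6 genes for nuclear import of SR proteins and their phosphatases was called in the authors' DESeq2 table, and 1 had an unadjusted p under 0.05, as did 22.8% of all genes.

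**Figure D5:**
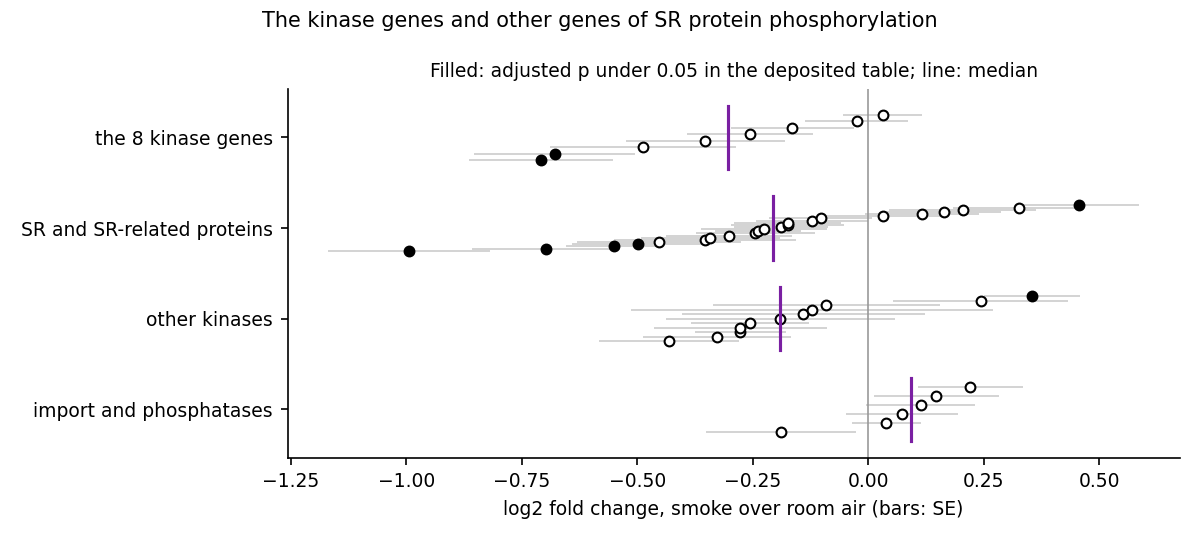
Deposited log2 fold changes with SE for the 8 kinase genes and for 3 lists of genes around them; filled points have an adjusted p under 0.05 and the vertical line is each list's median. Medians are -0.30 for the kinase genes, -0.21 for SR and SR-related proteins, -0.19 for the other kinases and 0.09 for import and phosphatases, and with the GC and length trend removed, which is not drawn, they are -0.14, -0.075, -0.0032 and 0.10.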

How the data were processed

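Per the labels' protocols, total RNA went into directional libraries. STAR, DESeq2, SAMtools 1.9, bedtools 2.27.1 and the mm10 build appear in the submitters' processing notes, with no role or order.

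The authors' deposited gene table holds, per the file headers, a signal (means of size-factor-normalized counts per group), log2 fold changes with standard errors, a Wald score, p-values and adjusted p-values. A header also names a mean over 24 samples, so its fit may rest on more libraries than the 6 analysed here. The authors' deposited JuncBASE table holds percent inclusion per library, and the deposited rMATS table differences with false discovery rates. Its 6 columns of per-sample values were not used, since the sets are not tied to groups. The effective lengths in it are deposited scores. Depth per library is unknown, because read counts tied to libraries were not used.

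Inclusion p was turned into log2((p + 1)/(100 - p + 1)) and tested between groups by limma 3.58.1 (R 4.3.3), adjusting over all events by Benjamini-Hochberg. Since expression was not used per library, the authors' comparison is described in place of the planned test, as the design foresaw. The GC and length trend was fitted to 12071 genes (99.9% of those tested) by weighted natural splines of 4 degrees of freedom (statsmodels 0.14.6, patsy 1.0.2). Both steps were run on simulated data with planted changes larger than those of the kinase genes, so detection of smaller ones was not tested. Positions and sequences are from GENCODE M21 (GRCm38). Members and lists were chosen with earlier results of these data known. The rule named all members with their events, list genes called, and for each member intron with 6 values the 3 most similar introns. Cdk11b, called only with the trend removed, and the cell markers Mertk, Lyz2 and Itgax were added after their values were seen.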

Additional observations from a re-analysis of the deposited data

How the results depend on the processing

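The 2 kinase genes called in the authors' table, Clk1 and Prpf4b, numbered 2 at adjusted p thresholds of 0.01 and 0.1 and when only genes averaging 50 or more normalized counts were adjusted over, and 0 with the GC and length trend removed. Shares of all genes called at those other thresholds and with that filter on the mean were not computed. Removal of the trend also turned Clk3 to -0.00305 and Srpk1 to 0.15 on the log2 scale, neither called before or after. The count of called JuncBASE events in the kinase genes was 0 with the other pseudocounts and filters, and 0 to 2 when leaving out 1 library at a time. Over all events, 23 of 5933 with a value in every library and 5 of 5257 with a mean level of 5% to 95% were called. The 2, without smoke replicate 3, were Clk3 intron 12 and Srpk1 intron 10, whose single remaining smoke value is 0%. That setting called 1131 of all events. Without smoke replicate 2, Clk1 intron 3 turned to 0.034, Clk4 intron 3 to 0.091 and Clk4 intron 4 to 0.050 log2 odds, and without smoke replicate 1 Clk1 intron 12 turned to 0.082. The lowest values of these 4 with 1 library left out were -0.82, -1.45, -1.24 and -1.30. The other 126 refits of single events kept their direction without a call, but many moved by over 1.5 times. Without smoke replicate 2, Clk3 intron 12 went from -2.42 to -0.52, Srpk1 intron 10 from -2.72 to -0.42, Srpk2 intron 5 from -1.91 to -0.76, Clk1 intron 7 from -1.53 to -0.68, Clk4 intron 7 from -1.26 to -0.23 and the Clk2 acceptor from -0.55 to -0.35, while Clk3 intron 3 went from -1.22 to -1.09. In that setting smoke replicate 3 is the only smoke library left for events without a value in smoke replicate 1. Without room air replicate 2, Clk3 intron 4 went from -0.73 to -0.33. Medians in percentage points with 1 library left out were added after seeing the data. They ranged from -8.73 to -3.12 for the 11 introns and from -4.68 to -3.34 for all. With the replicate block, 0 events were called. Same-numbered libraries did not deviate together (correlations of 0.018, -0.040 and -0.089 over 5933 events), room air replicate 2 correlated best with smoke replicate 3 (0.127), and the numbers were not treated as pairs. The 4 called rMATS introns became 3 at a false discovery rate of 0.01 and 2 with a difference of at least 10 percentage points. They became 2 without regions that hold an exon, an alternative chosen after seeing the data. Shares of all introns called under these settings were not computed, so nothing is read from these counts.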

Other observations

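For each of the 4 kinase gene introns measured in each of the 6 libraries, the 3 introns of other genes with the most similar levels were found among 1988, by the mean absolute difference in percent retention over the 6 libraries. Those closest to intron 3 of Clk3 lay in Srsf10, an SR protein gene, in the chemokine gene Ccl3 and in Hpgds, at 0.883, 0.945 and 1.27 percentage points. Those closest to intron 7 of Clk1 lay in Cers2, Eif4a2 and Atp5c1, at 0.592, 0.747 and 0.860 percentage points. For intron 12 of Clk1 they lay in Tap2, Nt5c and Herpud1, and for intron 7 of Clk4 in Inpp5k, Mrpl43 and Gmpr2, at most 1.19 points away. The names describe the table and not a relation between the genes.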
